A study of Mus musculus with 23 samples.

Results

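The RNA levels of 10 genes that carry glucose through glycolysis were followed in mouse spleen B cells, before and after culture and with and without a guide RNA against Irf8. The genes were taken by symbol from a fixed list: Slc2a1, a glucose transporter, and the enzyme genes Hk1, Hk2, Gpi1, Pfkl, Aldoa, Tpi1, Pgk1, Pkm and Ldha. All 10 were listed in the naive table, out of 11548 genes, and in the cultured table, out of 10574 genes. All 10 also passed the filter for testing in both. On build GRCm38.p6, Slc2a1 lies at chr4:119108745-119137330, Hk1 at chr10:62268855-62379920 and Hk2 at chr6:82725025-82774454. Tpi1 overlaps Spsb2 and Hk1 overlaps Hk1os, and the libraries kept no strand, so reads in those overlaps cannot be assigned.

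Glycolysis splits glucose into pyruvate in the cytosol and yields ATP and precursors for nucleotides, lipids and amino acids. Glucose enters through transporters such as GLUT1 (Slc2a1) and is trapped by hexokinases, and phosphofructokinase commits it to the pathway. The enzymes from aldolase to pyruvate kinase form pyruvate, and lactate dehydrogenase turns pyruvate into lactate and restores the cofactor that the pathway uses. Resting B cells use little glucose, and dividing B cells are known for taking up much more of it. MYC and the hypoxia-inducible factor HIF1 are textbook activators of many of these genes.

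The 23 libraries were of polyA RNA from sorted cells and fell into 8 groups. KO cells carried 1 of 2 guides against Irf8, which encodes a transcription factor that shapes B cell fate, and were sorted as Thy1.1-positive. WT cells were Thy1.1-negative and carried no guide, and a guide aimed elsewhere was not part of the design, so effects of Irf8, of the guide and of the sort cannot be told apart. All cells were sorted as negative for CD11b, F4/80 and Thy1.2. Naive B cells (B220-positive, untreated) gave 3 WT and 3 KO libraries in the guide 1 arm and as many in the guide 2 arm. Activated B cells (B220 and GL7 positive, CD138-negative) gave 3 WT and 3 KO libraries. Plasmablasts, sorted on CD138, gave 2 WT and 3 KO libraries. Cultured KO cells had guide 1, and all cultured cells had spent 72 hours with the bacterial stimulus LPS, given in the labels as 20 mg/ml, and with the cytokines IL-2 at 20 ng/ml and IL-5 at 5 ng/ml. The age and strain of the mice, and how the guide was delivered, are not given in the sources used here. Nothing in the labels says which libraries came from separate animals or cultures, so p-values reflect only how far these libraries spread, which may be technical.

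All levels are in RPKM, a read number corrected for gene length and for library size. Estimated depth was 14500000 to 22200000 reads in naive and 4300000 to 26900000 in cultured libraries, except plasmablast KO m3 with 51000. In total 5 libraries were doubted, and the results are given with and without them. Plasmablast KO m3 was shallow and had 1984 genes listed at 0. Naive KO guide 1 A had 1405 genes listed at 0, where no further naive library passed 291. Irf8 and Thy1, which check the labels, went against them in the activated m3 pair, where Thy1 was at 0.093 RPKM in the library labelled KO and at 25.7 in the library labelled WT. Irf8 was at 92.4 and 60.0 in the same pair. Thy1 also reached 4.93 in naive WT guide 1 A, while the remaining 5 naive WT libraries stayed at or under 0.052. Irf8, the targeted gene, was at 47.6 to 77.7 RPKM in naive KO and 79.8 to 98.0 in naive WT libraries, with no overlap, and at 69.2 and 68.1 in activated KO and 108 and 93.6 in activated WT m1 and m2. In plasmablasts it overlapped, at 17.5, 21.4 and 24.2 in KO and 24.6 and 17.6 in WT libraries, so there only Thy1 checks the labels. All 8 B cell markers were listed in every group, and none of 8 neutrophil and 7 platelet markers. Of T cell markers, Cd3e, Cd4 and Cd8a were not listed, while 2 of 8 in naive cells summed to 15.4 to 41.0 RPKM and Lck in cultured cells reached 5.04, and 53.95 in plasmablast KO m3. In naive cells 5 of 8 macrophage markers summed to 0.91 to 25.6 RPKM (Lyz2 not listed), 6 of 8 NK cell markers to 0.75 to 15.2 and 2 of 8 erythroid markers to 2.54 to 21.7.

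**Figure D1:**
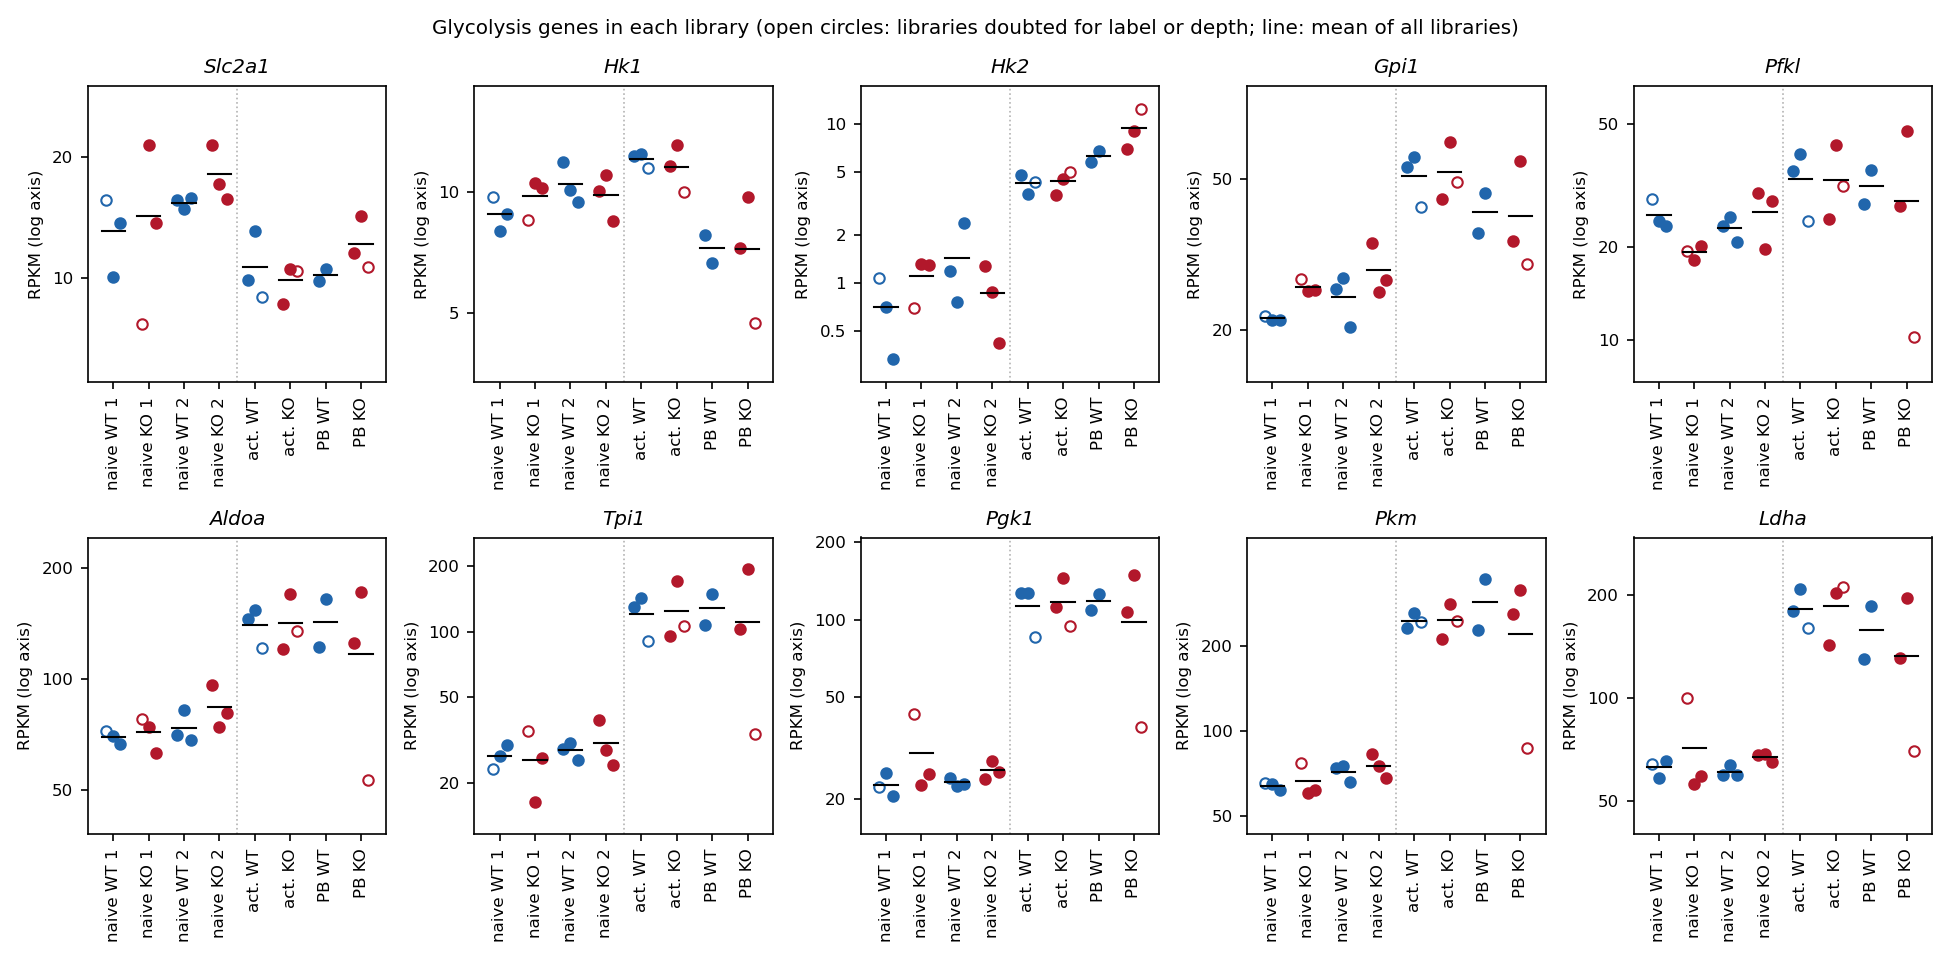
RPKM of the 10 genes (log axes) in each library of the 8 groups, with WT in blue, KO in red and a line at the mean of all libraries of a group; open circles are the 5 doubted libraries, and the dotted line separates the naive from the cultured table. Hk2, Gpi1, Aldoa, Tpi1, Pgk1, Pkm and Ldha are higher in every activated WT library than in every naive WT library, while Slc2a1 is not.

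Across the naive and cultured tables, 7 of the 10 genes were higher in cultured cells with all libraries, and Slc2a1 was not. The tables were made separately, so these are levels set side by side with no test. Gene lengths were the same in both. Hk2, Gpi1, Aldoa, Tpi1, Pgk1, Pkm and Ldha were higher in each of the 3 activated WT libraries than in each of the 6 naive WT libraries, and the same 7 were higher in both plasmablast WT libraries. Of the 10178 genes in both tables, 28.1% were higher in this way in activated and 29.1% in plasmablast WT cells. These counts are with all libraries. Without the doubted ones, Pfkl was also above every naive WT library in activated and plasmablast WT cells, and Hk1 in activated WT cells. The share of all genes was not taken without them. The median difference of the 10 genes in log2(RPKM + 1) was 1.23 in activated and 1.16 in plasmablast WT cells, against -0.03 and -0.16 over all shared genes. In bulk RNA, fewer cells of a type and less RNA per cell cannot be told apart. Summed proliferation markers also differed, at 806 to 901 RPKM in activated WT and 33.5 to 119 in naive WT libraries, and their part in these levels was not tested.

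The highest ratios were those of Pgk1, Tpi1 and Hk2. Pgk1, which makes the first ATP of the pathway, was at 20.6, 22.8 and 25.4 RPKM (lowest, median and highest of 6) in naive WT cells. In activated WT libraries m1, m2 and m3 it was at 127, 127 and 85.7 RPKM. It was at 109 and 126 in plasmablast WT m1 and m2, and the ratios of the means were 4.92 and 5.11. Tpi1, which interconverts the 3-carbon sugars that aldolase releases, was at 23.0 to 30.7 RPKM in naive WT cells and at 130, 143 and 90.1 in activated WT libraries. Its plasmablast WT libraries held 107 and 149, and the ratios were 4.41 and 4.68. Every cultured WT library thus lay far above the naive range for both genes.

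Hk2, the inducible hexokinase, was at 0.332, 0.919 and 2.39 RPKM (lowest, median and highest of 6) in naive WT cells. It reached 4.82, 3.66 and 4.36 in activated WT and 5.83 and 6.80 in plasmablast WT libraries, 3.98 and 5.87 times the naive mean. Hk1, the hexokinase that most cells express, went another way. Its naive WT libraries held 7.98 to 11.8 RPKM, which overlapped the 11.5 to 12.4 of activated WT cells only through the doubted m3. In activated WT m1 and m2 Hk1 was at 12.3 and 12.4, above every naive WT library. Its plasmablast WT libraries, at 7.81 and 6.67, were below every naive WT library, a pattern that 38.9% of shared genes had.

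Slc2a1 had no such increase. It was at 10.1, 15.2 and 15.8 RPKM (lowest, median and highest of 6) in naive WT cells, at 9.85, 13.1 and 8.95 in activated WT and at 9.81 and 10.5 in plasmablast WT cells. The groups overlapped, and the ratios of the means to naive were 0.745 and 0.713. None of the 10 genes was lower in every activated WT library than in every naive WT library, while 28.5% of shared genes were. Pfkl, the liver-type phosphofructokinase, also overlapped, with 20.7 to 28.7 RPKM in naive WT and 24.4 to 40.03 in activated WT cells and ratios of 1.37 and 1.30. Without the doubted libraries Pfkl did not overlap. It was then at 20.7 to 25.0 in naive WT, 35.4 to 40.03 in activated WT and 27.6 to 35.5 in plasmablast WT cells.

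The remaining enzymes lay between. Pkm, the pyruvate kinase gene whose splice forms are counted together here, was at 61.7 to 75.0 RPKM in naive WT cells, 232 to 261 in activated WT cells and 227 and 346 in plasmablast WT cells, ratios of 3.62 and 4.23. Ldha, the lactate dehydrogenase subunit, had ratios of 2.96 and 2.55, Gpi1, the glucose-6-phosphate isomerase, 2.22 and 1.78, and Aldoa, the fructose-bisphosphate aldolase, 1.95 and 1.99. Of the later enzymes outside the list, named here after their values were seen, Gapdh was at 47.7 to 58.6 RPKM in naive WT and 134 to 161 in activated WT libraries. Eno1 was at 62.8 to 83.0 in naive WT and 129 to 156 in activated WT libraries, and Pgam1 at 21.6 to 26.8 and 53.9 to 71.2.

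The order of the levels changed as a result. In naive WT cells the order by mean RPKM was Aldoa (71.9), Pkm (67.8) and Ldha (61.7), then Tpi1, Pfkl, Gpi1 and Pgk1 at 27.4 to 23.0, and then Slc2a1 (14.3), Hk1 (9.64) and Hk2 (1.08). In activated WT cells it was Pkm (246), Ldha (183), Aldoa (140), Tpi1 (121), Pgk1 (113), Gpi1 (51.1), Pfkl (33.3), Hk1 (12.1), Slc2a1 (10.6) and Hk2 (4.28). Among neighbours in the activated order, Aldoa and Tpi1, Tpi1 and Pgk1, and Hk1 and Slc2a1 had overlapping libraries. Summed over the 10 genes, naive libraries held 306 to 407 RPKM and cultured libraries 776 to 1164, except plasmablast KO m3 at 350.4. Such sums and orders rest on the table's gene lengths, which range from 3051 bases for Pgk1 to 12382 bases for Hk1.

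The DNA before the start sites is shown because 7 of the genes were high together in cultured cells with all libraries. It is given for Hk2, Pgk1 and Ldha, which were among them. It is also given for Hk1, which was not, and which was above the naive WT range only in activated cells without the doubted libraries. Sequences are the 250 bases before an annotated start in RefSeq, build GRCm38.p6, read 5′ to 3′ on the gene's strand. Capitals mark ACGTG, the core that HIF1 binds, CACGTG, the E-box that MYC and other factors bind, and GCGTG, another form of the HIF1 core, each on both strands; every CACGTG also holds ACGTG on each strand. The windows were chr6:82774455-82774704 (minus strand) for Hk2, chrX:106186850-106187099 (plus) for Pgk1, chr7:46845554-46845803 (plus) for the first of 2 Ldha starts, and chr10:62340422-62340671 (minus) for an inner Hk1 start.
Hk2: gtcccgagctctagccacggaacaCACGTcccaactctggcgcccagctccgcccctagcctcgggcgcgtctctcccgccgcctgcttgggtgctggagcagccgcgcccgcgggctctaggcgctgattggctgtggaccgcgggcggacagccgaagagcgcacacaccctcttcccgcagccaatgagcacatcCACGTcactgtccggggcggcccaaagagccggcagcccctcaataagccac
Pgk1: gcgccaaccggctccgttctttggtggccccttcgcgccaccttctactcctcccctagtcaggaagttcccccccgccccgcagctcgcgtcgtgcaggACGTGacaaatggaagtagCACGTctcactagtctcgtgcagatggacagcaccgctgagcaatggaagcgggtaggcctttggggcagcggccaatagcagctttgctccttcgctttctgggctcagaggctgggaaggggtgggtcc
Ldha: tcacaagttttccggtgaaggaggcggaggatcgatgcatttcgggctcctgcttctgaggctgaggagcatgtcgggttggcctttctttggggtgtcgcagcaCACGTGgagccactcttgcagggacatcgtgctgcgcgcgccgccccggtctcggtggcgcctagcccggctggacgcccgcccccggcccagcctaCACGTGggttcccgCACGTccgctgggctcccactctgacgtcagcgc
Hk1: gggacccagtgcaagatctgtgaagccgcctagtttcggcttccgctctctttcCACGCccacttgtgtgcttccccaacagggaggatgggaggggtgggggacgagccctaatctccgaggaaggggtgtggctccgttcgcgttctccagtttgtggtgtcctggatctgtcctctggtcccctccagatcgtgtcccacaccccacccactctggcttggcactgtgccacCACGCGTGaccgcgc
Hk2 and Pgk1 each held ACGTG at 2 places, and the Ldha window held 2 E-boxes and a further ACGTG. The Hk1 window held GCGTG at 3 places and no ACGTG. Over the 15 windows of the 10 genes, ACGTG was in 7 (46.7%), from Slc2a1, Hk2, Aldoa, Pgk1, Pkm and Ldha, against 16.6% of all 32851 windows. Among them, 2 are overlapping Aldoa windows that hold the same site. CACGTG was in 1 of the 15 (6.67%) against 6.02% of all, and GCGTG in 4 (26.7%) against 28.2%. These matches describe letters only. Slc2a1, which was not higher in cultured cells, held both ACGTG and GCGTG, and Tpi1 and Gpi1, which were, held none of the 3 motifs.

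Naive KO and WT cells were compared to ask whether the genes differed with the Irf8 guides before stimulation. None of the 10 was called by limma at an adjusted p under 0.05, and 1, Gpi1, had an unadjusted p under 0.05. Of all 10137 genes tested, 1.88% were called and 1289 had an unadjusted p under 0.05. The 10 differences, averaged over both guides, ran from -0.12 to 0.25 in log2(RPKM + 1), with a median of 0.08 against -0.02 over all genes. Their 95% intervals lay between -0.49 and 0.55. Without naive KO guide 1 A and naive WT guide 1 A, none was called either, and 1 (Slc2a1) had an unadjusted p under 0.05. Of all 10041 genes then tested, 3.36% were called and 1759 had such an unadjusted p.

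Gpi1 in the guide 1 arm was at 27.3, 25.5 and 25.6 RPKM in KO libraries A, B and C and at 21.9, 21.4 and 21.3 in WT libraries. In the guide 2 arm it was at 33.9, 25.2 and 27.2 in KO and 25.7, 27.4 and 20.5 in WT libraries. KO and WT libraries did not overlap with guide 1 and overlapped with guide 2, and the test of the difference between the guides gave a limma adjusted p of 0.987. The difference over both arms was 0.24 (95% interval 0.03 to 0.46, limma adjusted p = 0.320).

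Pfkl was lower in the guide 1 arm, with 19.4, 18.2 and 20.2 RPKM in KO and 28.7, 24.4 and 23.4 in WT libraries. With guide 2 it was at 30.04, 19.8 and 28.3 in KO and 23.5, 25.0 and 20.7 in WT libraries. The guide 1 groups did not overlap and the guide 2 groups did. The difference was -0.38 with guide 1 (limma adjusted p = 0.267) and 0.15 with guide 2 (adjusted p = 1), and the test of the difference between the guides gave an adjusted p of 0.918.

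Slc2a1 in naive KO cells was at 7.69, 21.5 and 13.7 RPKM with guide 1 and at 21.5, 17.1 and 15.7 with guide 2. Its WT libraries were at 15.6, 10.1 and 13.7 in the guide 1 arm and at 15.6, 14.8 and 15.8 in the guide 2 arm. KO guide 1 A, 1 of the doubted libraries, was the lowest of all 12. The difference was 0.12 with all libraries and 0.36 (SE 0.139, limma adjusted p = 0.195) without the doubted 2, so its size rests on them.

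By guide, 2 of the 10 genes (Gpi1 and Pfkl) did not overlap between KO and WT with guide 1, against 17.7% of all genes, and 1 (Ldha) with guide 2, against 13.8%. None was called by limma with guide 1, with guide 2 or between the guides, where 1.11%, 0.0296% and 0% of all genes were called. At an unadjusted p under 0.05 there were 1 (Pfkl), 0 and 1 (Pfkl), against 1594, 426 and 479 of all 10137 genes. Without the doubted libraries, which leaves 2 against 2 with guide 1, none was called either, against 1.79%, 0.259% and 0% of all genes, and 6 of 10 did not overlap with guide 1, against 48.3% of all genes. Ldha and Pgk1 had their highest naive values, 99.6 and 42.9 RPKM, in KO guide 1 A, against at most 68.5 and 28.3 in the other 11 naive libraries. Without that library and WT guide 1 A, the difference of Pgk1 over both guides went from 0.25 to 0.11 and that of Ldha from 0.14 to 0.02.

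**Figure D2:**
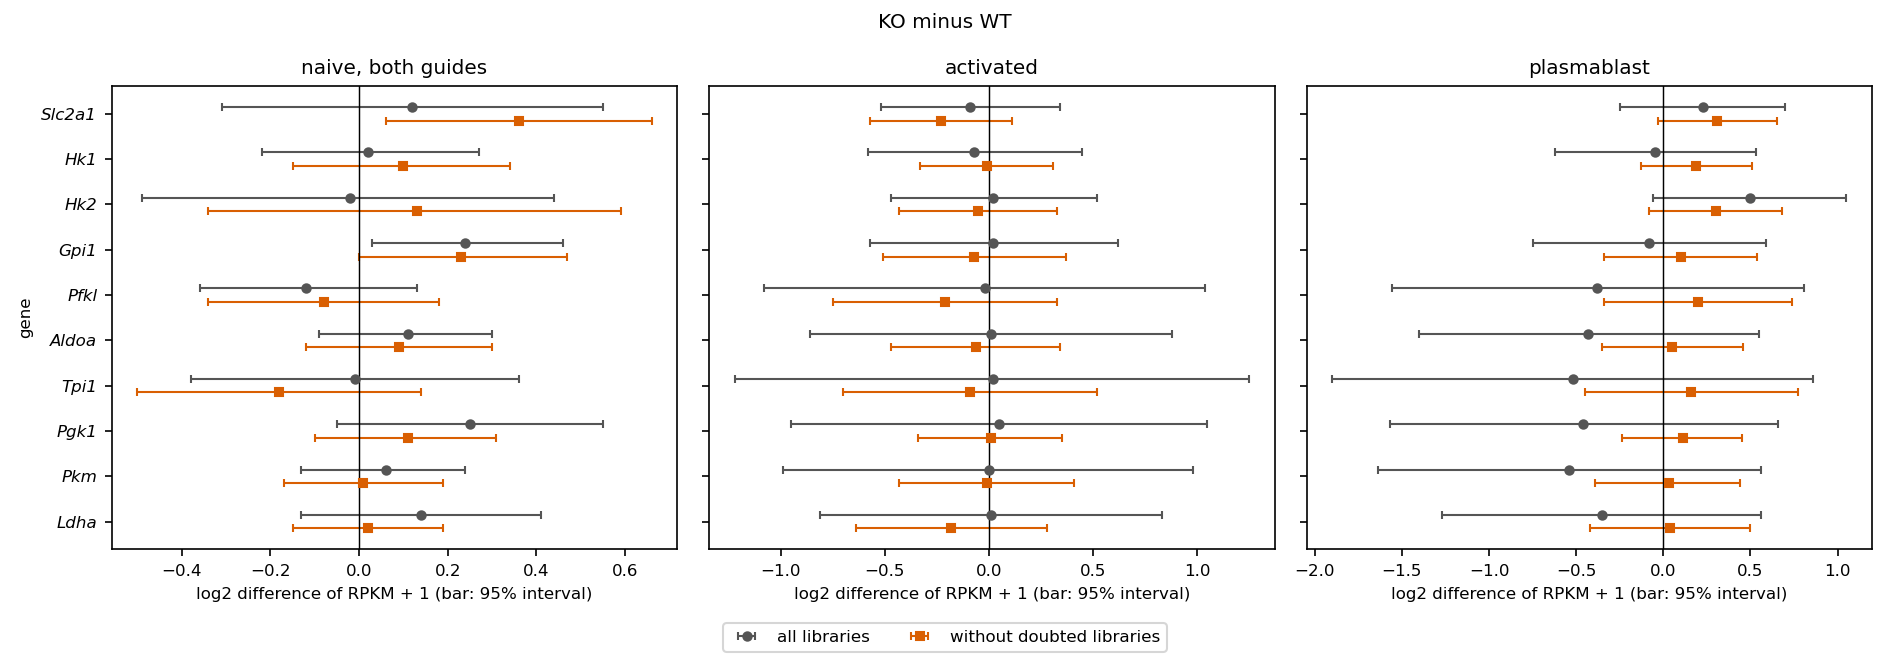
KO minus WT difference of each gene in log2(RPKM + 1) in naive cells (mean of both guides), activated B cells and plasmablasts, with 95% intervals from limma, for all libraries (grey circles) and without the doubted libraries (orange squares); the horizontal scales differ. No gene is called in any of the 3 comparisons, and in plasmablasts 8 of 10 differences change from below 0 to above 0 when the shallow KO m3 library is left out.

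Around the 10 genes, 3 of 106 tested genes in 8 related lists were called in naive cells with all libraries (2.83%, against 1.88% of all genes). None of the 15 tested further glycolysis genes passed the test, nor did any of 6 regulators of flux, 13 genes of pyruvate entry into mitochondria, 9 of the pentose phosphate pathway or 18 of the citric acid cycle. In the other lists, Ndrg1, a hypoxia-responsive gene, fell by 1.16 (limma adjusted p = 0.0181), 1 of 17 in its list. By guide its difference was -1.96 with guide 1 (adjusted p = 0.0122) and -0.35 with guide 2 (adjusted p = 1), and the test between the guides gave an adjusted p of 0.918. Max, the partner of MYC, rose by 0.62 (adjusted p = 0.0419, 1 of 16). Pgm1, a phosphoglucomutase that joins glycogen to glycolysis, rose by 1.02 (adjusted p = 0.0481, 1 of 12). Markers of dividing cells differed in the same comparison: 11 of 12 proliferation markers had differences below 0, with a median of -0.63 with all libraries and -0.79 without the doubted ones. Of these Mcm5 fell with all libraries (by 0.75), and Mcm5 and Aurkb without the doubted ones. The plasma cell marker Sdc1 fell by 1.49 and the NK cell marker Prf1 rose by 1.26 with all libraries. Without the doubted libraries the plasma cell marker Irf4 rose by 0.59, while Sdc1 and Slamf7 fell by 1.47 and 0.51. Summed plasma cell markers overlapped between the genotypes, at 160 to 239 RPKM in naive WT and 176 to 282 in naive KO libraries. So did summed NK cell markers, at 0.75 to 15.2 in WT and 2.3 to 5.87 in KO libraries. The part of these markers in the naive differences was not tested.

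Without the doubted libraries 4 further genes were called over both guides, which made 7 of 106 (6.60%), against 3.36% of all genes. Slc2a3, the gene of the glucose transporter GLUT3, was at 6.76, 9.14 and 11.3 RPKM (lowest, median and highest of 5) in KO and at 3.10, 4.67 and 6.06 in WT libraries. It rose by 0.88 (limma adjusted p = 0.0115), and the groups did not overlap. With all libraries they did, as KO libraries went down to 2.92, below every WT library. The share of all genes without overlap was not taken for these groups. Pfkp, the platelet-type phosphofructokinase, was at 6.24, 6.92 and 7.38 in KO and 8.87, 9.65 and 11.7 in WT libraries. It fell by 0.50 (adjusted p = 0.0243) with no overlap. With all libraries the groups overlapped, as KO libraries reached 9.61. Pfkfb4, which makes the activator of phosphofructokinase, rose by 0.68 (adjusted p = 0.0136), from 2.96 to 5.98 RPKM across WT libraries to 6.31 to 9.16 across KO libraries. Pygl, a glycogen phosphorylase, rose by 1.47 (adjusted p = 0.00698). With guide 2 alone none of the 106 genes was called. In the same fit Slc2a3 was called over both guides and Slc2a1 (0.36) was not. Whether the 2 transporters differ from each other was not tested.

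In activated B cells KO and WT libraries overlapped for all 10 genes, and 3.13% of all genes did not overlap. None was called by limma, none had an unadjusted p under 0.05, and 0% of all 9986 genes were called. The differences ran from -0.09 to 0.05, with 95% intervals as wide as 1.22 below to 1.25 above for Tpi1. Both groups hold an m3 library whose Thy1 and Irf8 go against its label. Without the 3 doubted cultured libraries the differences ran from -0.23 (Slc2a1) to 0.01 (Pgk1), none was called, none had an unadjusted p under 0.05, and 0.71% of all genes were called. All 10 genes again overlapped, while 49% of all genes did not. The widest interval was then -0.70 to 0.52, again for Tpi1. Pkm, with a difference of -0.01 (95% interval -0.43 to 0.41), was at 212 and 282 RPKM in KO m1 and m2. In WT m1 and m2 it was at 232 and 261.

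In the same cells without the doubted libraries, 2 of the 106 genes in the other lists were called (1.89%, against 0.71% of all genes). Bpgm, which makes 2,3-bisphosphoglycerate in a side branch of glycolysis, was at 14.97 and 15.5 RPKM in KO and 9.56 and 10.6 in WT libraries, and rose by 0.55 (limma adjusted p = 0.0413, 1 of 16 further glycolysis genes). Mpc2, a subunit of the mitochondrial pyruvate carrier, was at 28.0 and 31.5 in KO and 19.7 and 21.3 in WT libraries, and rose by 0.52 (adjusted p = 0.0499, 1 of 12). With all libraries, neither was called. Both genes were also higher in plasmablasts than in activated cells, and in this comparison all 8 plasma cell markers had differences above 0 (median 0.32), of which Tnfrsf17 was called (1.12, adjusted p = 0.0235). The part of plasma cell markers in these 2 calls was not tested.

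In plasmablasts KO and WT cells did not differ by the test in any of the 10 genes. None was called, none had an unadjusted p under 0.05, and 0% of all genes were called by limma. The direction rested on KO m3. With it, 8 of 10 differences were below 0 with a median of -0.37, against -0.12 over all genes. Without the doubted libraries all 10 were above 0 with a median of 0.13, against 0.04 over all genes, and 0.071% of all genes were called, none of them among the 10. KO m3 held fewer reads, 33 for Pkm and 7 for Tpi1 by the estimated depth. Tpi1 shows the size of its effect, at 103 and 194 RPKM in KO m1 and m2, 33.7 in KO m3, and 107 and 149 in WT m1 and m2.

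Slc2a1 and Hk2 were the genes whose plasmablast groups did not overlap, 2 of 10 against 13.5% of all genes, and the same 2 without the doubted libraries, against 27.7%. Slc2a1 was at 11.5, 14.3 and 10.7 RPKM in KO m1, m2 and m3 and at 9.81 and 10.5 in WT m1 and m2. Every KO library was thus above both WT libraries, by a small margin at m3, whose value rests on 3 estimated reads. The difference was 0.31 without the doubted libraries (SE 0.157, limma adjusted p = 0.904). Hk2 differed by 0.30 (SE 0.175, adjusted p = 0.959), and its values are given next.

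Plasmablasts and activated B cells, both from stimulated cultures, were compared to ask what differs between the 2 sorted states. The hexokinase genes moved in opposite directions, Hk1 lower and Hk2 higher in plasmablasts, and the test passed once the doubted libraries were left out. Hk2 was at 4.82, 3.66 and 4.36 RPKM in activated WT m1, m2 and m3 and at 5.83 and 6.80 in plasmablast WT m1 and m2. In KO cells it was at 3.61, 4.52 and 5.01 in activated and at 7.02, 9.08 and 12.5 in plasmablast libraries. Plasmablast values were above activated ones in both genotypes with no overlap.

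Hk1 was at 12.3, 12.4 and 11.5 RPKM in activated WT libraries and at 7.81 and 6.67 in plasmablast WT libraries. In KO cells it was at 11.6, 13.04 and 9.998 in activated and at 7.25, 9.68 and 4.73 in plasmablast libraries. Plasmablast values were all lower, with a gap between activated KO m3 and plasmablast KO m2 of less than 1 RPKM. In plasmablast KO m3 the levels of Hk1 and Hk2 rest on 3 and 4 estimated reads.

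With all libraries, none of the 10 genes was called in WT or in KO cells by limma, where 1.76% and 3.44% of all genes were. At an unadjusted p under 0.05 there were 1 in WT (Hk1) and 2 in KO cells (Hk1 and Hk2). Of all 9986 genes, 1369 in WT and 2115 in KO cells had such a p. The differences were -0.67 for Hk1 and 0.47 for Hk2 in WT (adjusted p = 0.273 and 0.471) and -0.65 and 0.94 in KO cells (adjusted p = 0.159 and 0.0517). All genes together had a median difference of -0.12 in WT and -0.22 in KO cells, so relative to the median the Hk1 difference is smaller and that of Hk2 larger by those amounts.

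Without the doubted libraries 2 of 10 genes were called in each genotype. Hk1 fell by 0.70 in WT (SE 0.147, limma adjusted p = 0.00184) and by 0.50 in KO cells (SE 0.147, adjusted p = 0.0191). Hk2 rose by 0.49 in WT (SE 0.175, adjusted p = 0.0362) and by 0.83 in KO cells (SE 0.175, adjusted p = 0.00282). In the same fits 46.3% (15.5% higher, 30.7% lower) of all genes were called in WT and 33.6% (12.1% higher, 21.5% lower) in KO cells, so the share of the 10 that was called was not above that of all genes. The medians over all genes were then -0.16 and -0.10. Leaving out plasmablast KO m3 alone gave the calls of Hk1 (adjusted p = 0.00532) and Hk2 (adjusted p = 0.0472) in WT, since all groups share an estimate of the spread. In KO cells, where m3 is 1 of the libraries compared, it gave the call of Hk2 (adjusted p = 0.00615), whose difference went from 0.94 to 0.75.

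**Figure D3:**
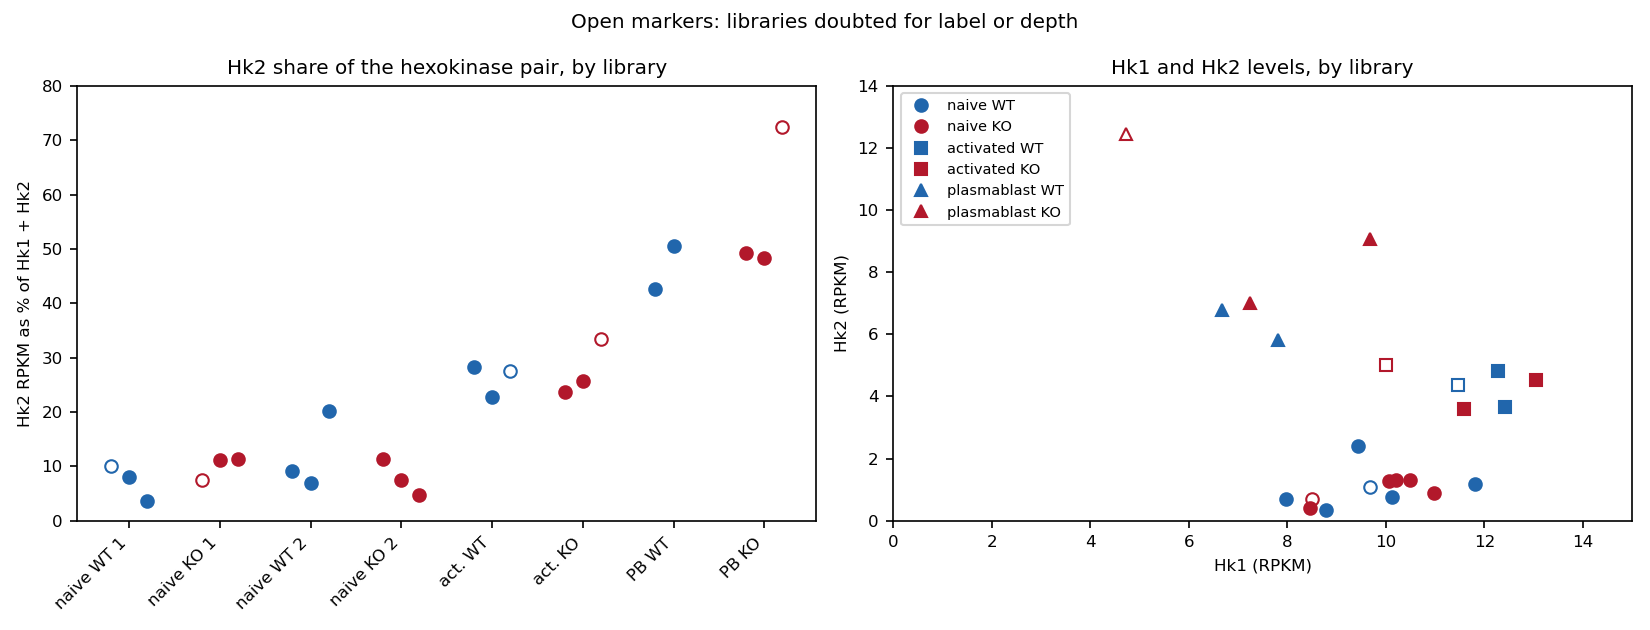
Left, Hk2 as a percentage of Hk1 plus Hk2 RPKM in each library of the 8 groups; right, Hk1 against Hk2 RPKM in each library, with circles for naive, squares for activated and triangles for plasmablast libraries, WT in blue, KO in red and the 5 doubted libraries open. The share is 3.6% to 20.2% in naive, 22.7% to 33.4% in activated and 42.7% to 50.5% in plasmablast libraries other than KO m3, which is at 72.5%.

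As a share of Hk1 plus Hk2 RPKM, Hk2 made up 3.6% to 20.2% in the 12 naive libraries, 22.7% to 33.4% in the 6 activated and 42.7% to 50.5% in 4 plasmablast libraries. Plasmablast KO m3 was at 72.5%. The 3 states did not overlap in this share, which is a ratio within each library and was given no test. The share was taken from the same values as the tests above and is no separate support for them. Hk3, another hexokinase gene, was at most 0.592 RPKM in naive cells and was not listed in the cultured table.

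**Figure D4:**
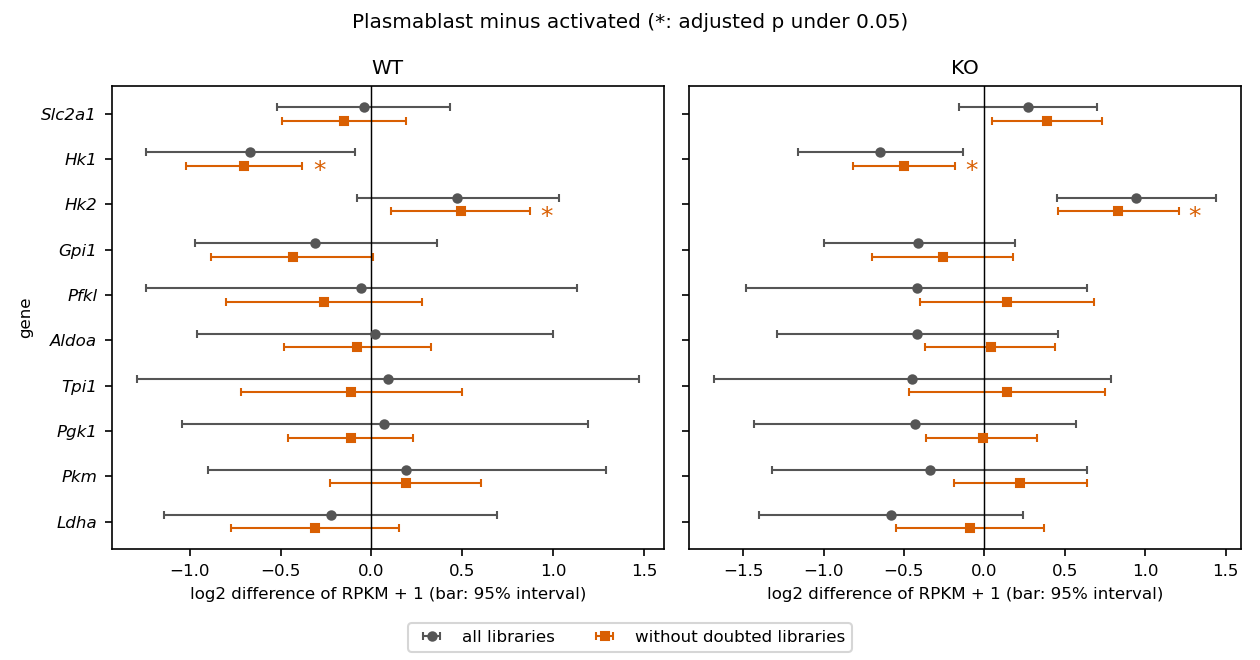
Plasmablast minus activated difference of each gene in log2(RPKM + 1), with 95% intervals from limma, in WT and in KO cells for all libraries (grey circles) and without the doubted libraries (orange squares); asterisks mark an adjusted p under 0.05. Hk1 is lower and Hk2 higher in both genotypes, with asterisks only without the doubted libraries.

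The other 8 genes were not called with all libraries or without the doubted ones. With the m-number as a replicate block and without the doubted libraries, Gpi1 (limma adjusted p = 0.0168) and Ldha (0.0278) were also called lower in WT and Slc2a1 (0.0217) higher in KO cells. In those fits 4987 of all 9861 genes were called in WT and 3725 in KO cells. In WT cells 2 of the 10 genes (Hk1 and Hk2) did not overlap between the states, against 58.3% of all genes, and in KO cells 3 (Slc2a1, Hk1 and Hk2), against 30.1%. Slc2a1 in KO cells was at 8.62, 10.5 and 10.4 RPKM in activated m1, m2 and m3 and at 11.5, 14.3 and 10.7 in plasmablast libraries. Its plasmablast values were all higher, closely so between plasmablast KO m3, whose value rests on 3 estimated reads, and activated KO m2. The difference without the doubted libraries was 0.39 (SE 0.157, limma adjusted p = 0.0713) in KO and -0.15 (adjusted p = 0.466) in WT cells.

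Gpi1 was at 53.8, 57.2 and 42.2 RPKM in activated WT and at 36.2 and 45.9 in plasmablast WT libraries, so the groups overlapped through activated WT m3. Without the doubted libraries 4 of 10 genes (Hk1, Hk2, Gpi1 and Pgk1) did not overlap in WT cells, against 73.4% of all genes, and 3 (Slc2a1, Hk1 and Hk2) in KO cells, against 68.1%. Without the doubted libraries its difference was -0.43 (SE 0.204, limma adjusted p = 0.0983) in WT and -0.26 (adjusted p = 0.355) in KO cells. Differences of the other genes without the doubted libraries ran from -0.31 (Ldha) to 0.19 (Pkm) in WT and from -0.09 (Ldha) to 0.22 (Pkm) in KO cells. Their 95% intervals reached from -0.80 (Pfkl) to 0.60 (Pkm) in WT cells, so the data do not show that these genes were equal in the 2 states.

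The state difference itself was compared between KO and WT cells. None of the 10 genes was called by limma with or without the doubted libraries, where 0% and 0.0304% of all genes were called. None of the 10 had an unadjusted p under 0.05 with all libraries, and 1 (Slc2a1) did without the doubted ones. Over all genes, 10 of 9986 had such a p with all libraries and 752 of 9861 without the doubted ones. For Slc2a1 the KO minus WT difference of the state differences was 0.54 (95% interval 0.06 to 1.02, adjusted p = 0.607), and for Hk2 it was 0.35 (-0.19 to 0.88, adjusted p = 0.843). Both comparisons of states with genotype rest on the same 4 groups.

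Around the 10 genes, 51 of 106 tested genes in the 8 related lists were called between the states in WT cells without the doubted libraries. That was 48.1%, against 46.3% of all genes. In KO cells it was 32 of 106 (30.2%), against 33.6% of all genes. The lists thus lay near the share of all genes, and single genes from the same fits are given as a description. Bsg, the chaperone of the lactate transporters, was at 174 and 218 RPKM in plasmablast WT and 79.6 and 89.8 in activated WT libraries and rose by 1.19 (limma adjusted p = 1.25e-05). Bpgm was at 25.0 and 27.2 in plasmablast WT and 9.56 and 10.6 in activated WT libraries and rose by 1.29 (adjusted p = 1.36e-06). Both also rose in KO cells, by 0.88 and 0.78. Of the 16 further glycolysis genes tested, these 2 rose and 5 fell in WT, and the same 2 rose and 1 (Eno3, an enolase) fell in KO cells. Of all genes, 15.5% rose and 30.7% fell in WT, and 12.1% rose and 21.5% fell in KO cells. Slc16a1, the lactate transporter MCT1, fell by 0.60 in WT cells (adjusted p = 0.00355).

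At the branch to the mitochondria, 2 of 12 genes rose and 4 fell in WT cells, and 2 rose and 1 fell in KO cells. The risers were Mpc2, by 1.09 in WT and 0.52 in KO cells, and Pdk2, an inhibitory kinase of pyruvate dehydrogenase, by 1.15 and 0.61. Pdha1, a subunit of pyruvate dehydrogenase, fell by 0.58 and 0.43. In the citric acid cycle 9 of 18 genes fell and 2 rose in WT cells, and 6 fell in KO cells. Fh1, the fumarase, was at 26.9 and 27.4 RPKM in activated WT and 11.95 and 13.96 in plasmablast WT libraries and fell by 1.02 (limma adjusted p = 5.95e-05). In the pentose phosphate pathway, which takes glucose-6-phosphate out of glycolysis, 5 of 9 genes fell in WT and 2 in KO cells, among them Pgd, by 0.59 and 0.53. Against these counts stand the 30.7% of all genes that fell in WT and the 21.5% that fell in KO cells.

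Genes that act on glycolysis from outside changed in both directions. Of all genes, 15.5% rose and 30.7% fell in WT cells, and 12.1% rose and 21.5% fell in KO cells, in the fit without the doubted libraries from which the following counts come. In the list of HIF1 and hypoxia targets 5 of 18 rose and 3 fell in WT, and 4 rose and 4 fell in KO cells. Adm, the gene of adrenomedullin, was at 5.27 and 7.96 RPKM in activated WT and 0.524 and 0.589 in plasmablast WT libraries and fell by 2.27 (limma adjusted p = 3.09e-05). Ero1l, an oxidase of the endoplasmic reticulum, rose by 0.81. With all libraries, Adm fell by 2.07 in KO cells (adjusted p = 0.0247) and Fh1 by 1.07 (adjusted p = 0.0372), and these were the only genes called in the 8 lists between the states in either genotype. In the MYC and mTORC1 list 3 of 16 genes rose and 2 fell in each genotype. Slc3a2, the heavy chain of amino acid transporters, rose by 1.19 in WT and 0.96 in KO cells, and Myc fell by 1.08 in WT cells (adjusted p = 0.00301). Of 5 regulators of flux, Pfkfb3 and Pfkfb4 fell in WT cells, by 0.65 and 0.49, and none was called in KO cells. In the hexosamine, glycogen and glycerol branches 3 of 12 genes rose and 4 fell in WT, and 2 rose and 3 fell in KO cells. Gys1, the glycogen synthase, fell by 1.29 in WT cells. Plasma cell markers summed to 2956 to 5275 RPKM in plasmablast WT and 1139 to 2905 in activated WT libraries. In both genotypes 7 of 8 plasma cell markers rose and 7 of 8 B cell markers fell without the doubted libraries. The single listed marker of each of 4 other cell types fell as well: Lck of T cells by 1.64 in WT and 1.68 in KO cells, Itgam of macrophages by 1.19 and 0.59, Hbb-bt of erythroid cells by 2.74 and 2.15, and Prf1 of NK cells by 0.73 and 0.93. The part of such marker differences in the values above was not tested.

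**Figure D5:**
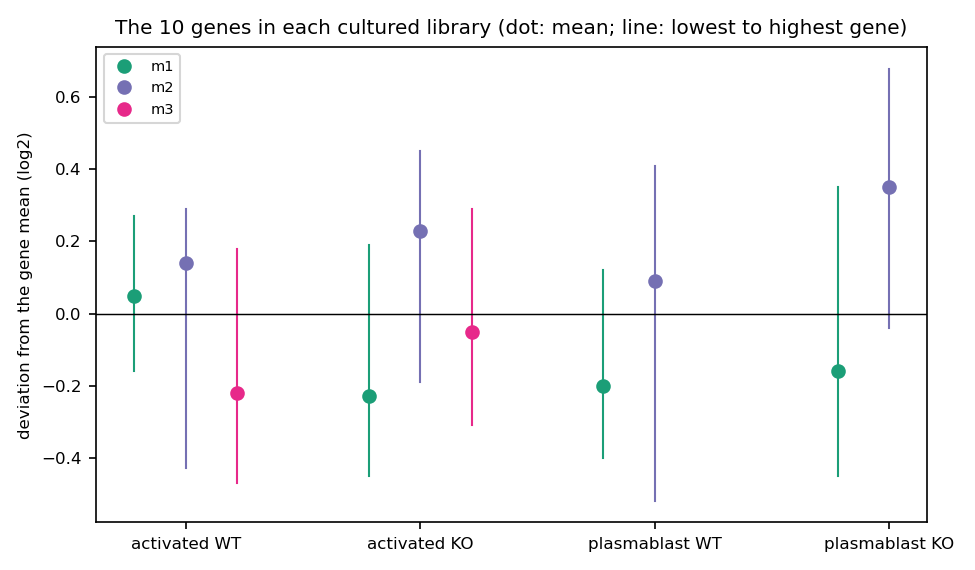
Deviation of the 10 genes from their own mean over 10 cultured libraries, in log2(RPKM + 1), by group and m-number; dots are the mean of the 10 genes and lines run from the lowest to the highest gene, and plasmablast KO m3 is left out. The m2 library is the highest in each of the 4 groups, with means of 0.09 to 0.35, where the plasmablast groups show m1 and m2 only.

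Within the cultured groups the 10 genes tended to be high or low together by library. The plasmablast groups were compared in m1 and m2 only, and both activated m3 libraries were doubted. The m2 library had the highest mean deviation in all 4 groups, at 0.14 in activated WT, 0.23 in activated KO, 0.09 in plasmablast WT and 0.35 in plasmablast KO cells. The m1 library was at 0.05, -0.23, -0.20 and -0.16 in the same groups. No label ties an m-number to a mouse or a culture. Estimated depth was 16800000, 21900000, 4300000 and 21300000 reads in m2 and 24600000, 26700000, 26900000 and 19100000 in m1 of these groups, and its part in the pattern was not tested.

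Over the 10 cultured libraries other than plasmablast KO m3, Pearson's r was 0.97 for Aldoa with Tpi1, 0.97 for Pfkl with Tpi1 and 0.95 for Pfkl with Aldoa. Hk1 and Hk2 stood at -0.70. In the 12 naive libraries the highest were 0.84 for Pgk1 with Ldha, both high in KO guide 1 A, and 0.80 for Gpi1 with Aldoa. These describe libraries that share groups, and whether they share runs of processing is not given in the sources used here. The genes outside the list whose levels were most like the mean of the 10 were G6pc3 (r = 0.897), Ankrd37 (0.877), Eno1b (0.844), Fam162a (0.834) and Pip4p2 (0.815) in the cultured libraries. In the naive libraries they were Bin1 (0.923), Rmnd5b, Calhm6 and Endog (0.916 each) and Sipa1 (0.912). Eno1 was eighth of 9976 genes in the cultured libraries (0.793), Pgam1 stood at 0.598 and Gapdh at 0.465. Eno1b is a near copy of Eno1, so reads may be split between them.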

How the data were processed

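RNA of sorted B cells was sequenced from SMART-seq v4 and Nextera XT libraries, per the labels' protocols. The submitters' processing notes name STAR, an aligner, and the build mm10. The authors deposited RPKM per gene in a naive and a cultured table, per the file headers, and how reads were counted is not given in the sources used here. Depths were estimated from the steps between low RPKM values.

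Each table was tested on its own. Genes with RPKM of at least 1 in at least 2 libraries entered limma 3.58.1 (R 4.3.3) on log2(RPKM + 1), with a mean per group, a variance trend, two-sided p-values and Benjamini-Hochberg adjustment over all genes tested; genes with adjusted p under 0.05 are called. Fold changes on this scale understate those of low genes. Every adjusted p in the text is from limma. In total 9 comparisons were made. The script was tested on simulated data.

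The 10 genes and the other lists were chosen with earlier results of these data known. All 10 genes were named, up to 4 called genes with the largest change were named per other list and comparison, and the 5 genes outside the list with the highest r were named per table. Alternatives included pseudocounts of 0.1 and 4, no filter, array weights, quantile normalisation, leaving out each library and the 5 doubted ones.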

Additional observations from a re-analysis of the deposited data

How the results depend on the processing

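With all libraries none of the 10 genes was called in any of the 9 comparisons. Over 1790 recomputed differences, 1767 stayed on the same side of the threshold and 23 gained a call. As no call was there at the start, none could be lost. None reversed with a call, and 240 uncalled differences changed sign. The calls gained lay between plasmablasts and activated cells. In WT cells 1 gene was called with only the groups compared (3132 genes in all against 176), 2 without the doubted libraries (4565) and 2 with gene-by-gene array weights (4619). Leaving out 1 library gave 0 to 2, the 2 without plasmablast KO m3 (3303 genes). In KO cells 1 was called with a pseudocount of 4, 1 with quantile normalisation, 2 without the doubted libraries (3318 genes against 344) and 3 with array weights, and leaving out 1 library gave 0 to 1. That 1 was Hk2, without plasmablast KO m1 (adjusted p = 0.0467) or m3 (0.00615).

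Over all genes, the deviations of same-numbered libraries had r of -0.105 to 0.176 over 6 naive and -0.243 to 0.254 over 15 cultured pairs, 1 of each over 0.1. The pairs included the doubted libraries, and r was not taken without them, so it cannot decide whether same-numbered libraries share a source. The 10 genes were highest in m2 in each cultured group, where the plasmablast groups were compared in m1 and m2 only. With the replicate block and all libraries, 0 of the 10 genes were called in every comparison. With the replicate block and without the doubted libraries, 4 were called between the states in WT cells (Hk1, Hk2, Gpi1 and Ldha). In KO cells 3 were (Slc2a1, Hk1 and Hk2). Of all 9861 genes, 4987 were called in this way in WT and 3725 in KO cells. Array weights by REML gave no value for the cultured table. Depth limits plasmablast KO m3, with 51000 estimated reads.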
